A study of Mus musculus with 2 samples.

Results

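The let-7 family was examined in the livers of mouse embryos at embryonic day 11.5. The members were the 10 counted genes whose Ensembl identifiers carry a let-7 symbol or the symbol Mir98 in the GENCODE mouse annotation, of 1973 microRNA genes counted in all. They were Mirlet7a-1, Mirlet7a-2, Mirlet7b, Mirlet7c-1, Mirlet7c-2, Mirlet7d, Mirlet7f-2, Mirlet7g, Mirlet7i and Mir98. The loci of Mirlet7e and Mirlet7f-1 were seen only as reads opposite to the counted genes Gm25927 and Gm24111, and are given beside the members. The data came from microRNA-seq of RNA shorter than 30 nucleotides, made from pooled livers of healthy B6NCrl embryos of both sexes, untreated as far as the labels say. The 2 libraries, biological replicates 1 and 2, formed 1 group. Replicate 1 pooled 109 embryos, and the size of the other pool was not given. No comparison between conditions was therefore possible, and spread is that between the 2 pools, which may be technical.

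let-7 microRNAs repress genes of growth and of early development, among them Hmga2, Ras genes, Myc and Lin28 itself, through a seed that pairs with sites in their messages. The RNA-binding proteins Lin28a and Lin28b hold back let-7 production in early embryos and stem cells: they bind the loop of the let-7 precursor, block its cutting by Drosha and Dicer and recruit enzymes that add uridines to its end. Lin28b is known for its part in fetal blood formation, which takes place in the liver at this age. The stage gives the family its interest here, but Lin28 messages were not measured, since microRNA genes were the features counted.

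The sequences are shown first because they set which reads could be assigned to which gene. Each precursor hairpin gives a 5p and a 3p strand, and in let-7 the 5p strand is known as the functional one. The 12 hairpins of the family carried 9 distinct 5p sequences of 22 bases (RefSeq, GRCm38.p6). Capitals mark the seed, bases 2 to 8, which all 9 shared.

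let-7a-5p: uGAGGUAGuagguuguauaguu
let-7b-5p: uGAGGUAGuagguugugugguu
let-7c-5p: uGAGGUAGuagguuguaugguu
let-7d-5p: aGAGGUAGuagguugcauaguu
let-7e-5p: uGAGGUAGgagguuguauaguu
let-7f-5p: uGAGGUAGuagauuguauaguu
let-7g-5p: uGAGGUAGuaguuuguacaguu
let-7i-5p: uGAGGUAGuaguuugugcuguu
miR-98-5p: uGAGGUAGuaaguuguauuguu

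The 9 sequences differed at few bases. Counted from 1 at the 5′ end with let-7a first, let-7c differed from let-7a by A19G, let-7e by U9G and let-7f by G12A. let-7b carried A17G beside A19G, so let-7b and let-7c also stood 1 base apart. let-7g differed from let-7a by G12U and U18C, let-7d by U1A and U16C, and miR-98 by G11A and A19U. let-7i was farthest from let-7a, with 4 differences: G12U, A17G, U18C and A19U. Of the 36 pairs, 4 stood 1 mismatch apart, and let-7d and let-7i, with 6, were the most distant.

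**Figure D1:**
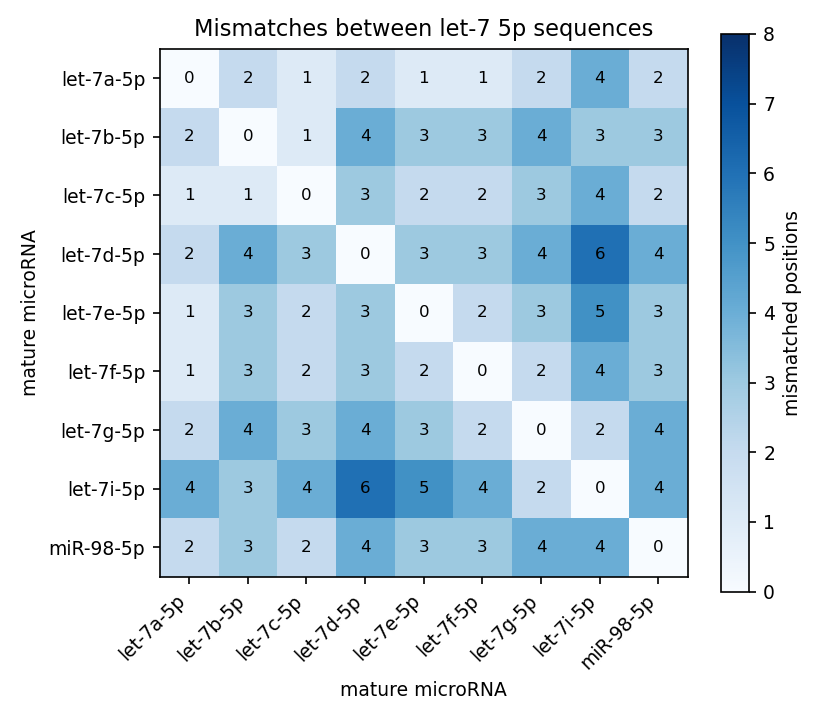
Number of mismatched positions between the 22-base 5p sequences of the let-7 family, mature microRNAs on both axes, darker cells for more mismatches. let-7a-5p has 1 mismatch with let-7c-5p, let-7e-5p and let-7f-5p, and let-7i-5p has 6 with let-7d-5p.

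Some of these sequences come from more than 1 hairpin. let-7a-5p lies in the hairpins of Mirlet7a-1 and Mirlet7a-2, let-7c-5p in those of Mirlet7c-1 and Mirlet7c-2, and let-7f-5p in those of Mirlet7f-1 and Mirlet7f-2, in a search of the 1005 mouse hairpins of the RefSeq table. The other 6 were each found in 1 hairpin. The deposited counts set aside reads that map to several places, which made up 22.0% of the reads of replicate 1 and 22.6% of those of replicate 2. How many of those reads were let-7 could not be read from the files. Of the 10 members, 5 thus had a 5p sequence of their own (Mirlet7b, Mirlet7d, Mirlet7g, Mirlet7i and Mir98) and 5 shared it.

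The 3p strands, which are usually degraded, separated more of the genes. Mirlet7a-2, Mirlet7c-1 and Mirlet7f-2 share their 5p sequence but each has a 3p sequence found in no other hairpin. Mirlet7a-1 and Mirlet7c-2 do not, as both carry the same 3p sequence, shown because it leaves these 2 genes without a mature strand of their own.

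let-7a-1-3p: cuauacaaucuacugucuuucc
let-7c-2-3p: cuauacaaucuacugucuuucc
let-7a-2-3p: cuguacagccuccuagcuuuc
let-7c-1-3p: cuguacaaccuucuagcuuucc

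In their hairpins, Mirlet7a-1 and Mirlet7c-2 shared a run of 26 bases. Some sequences that were whole in 1 hairpin were still close to another: in let-7b, let-7g, let-7i and let-7e, 17 bases from the 5′ end were needed before no other hairpin matched, against 12 or fewer in let-7d and miR-98.

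The loop between the 5p and 3p strands is where Lin28 is known to bind, with zinc knuckles that contact a GGAG near the 3′ end of the loop. Loops of the most abundant member, of 2 with a low count and of 2 that lack this motif are shown, with GGAG in capitals.

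Mirlet7g: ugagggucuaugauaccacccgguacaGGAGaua
Mirlet7a-2: uagaguuacaucaagGGAGauaa
Mirlet7c-1: uagaguuacacccugGGAGuuaa
Mirlet7b: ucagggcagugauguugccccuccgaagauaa
Mirlet7c-2: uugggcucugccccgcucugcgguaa

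Across the 11 loops searched, on the strand of the hairpin, GGAG stood in 9, against 11.9% of 42 other hairpins with loops of 23 to 34 bases. GAU, the core of a motif known for the cold shock domain of Lin28, stood outside any GGAG in 4 of the 11 loops (Mirlet7b, Mirlet7d, Mirlet7f-1 and Mirlet7g), against 19.0% of the other hairpins. GAU that overlapped a GGAG was not counted. A match describes these letters and is not a binding site. By the levels given next, the searched members without GGAG ranked 8 (Mirlet7b) and 10 (Mirlet7c-2) of 10. Mirlet7c-2 shares both mature strands with other hairpins, which limits the reads that could be assigned to it. A link between motif and level was not tested.

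Replicate 1 held 3344673 counts on the strand of the gene and replicate 2 held 1584499. Levels are given as counts per 1000000 such counts (CPM). A mature microRNA is read whole, so CPM of hairpins were compared without division by length, and the effect of dividing is given with the order of the genes. A count of 3, the limit that a count of 0 allows, is 0.897 CPM in replicate 1 and 1.89 CPM in replicate 2, and intervals and limits cover counting error only. Of the 4 hepatocyte markers that check the liver label, 3 were detected, and Mir122 ranked 4 of all genes, while Mir194-1 had 48 and 8 counts. Markers of other cell types were present too: 2 of 3 pancreas markers were detected, with Mir375 at 1891 and 2430 CPM, 2 of 2 erythroid and 2 of 2 counted leukocyte markers were detected, and the neural list summed to 3.29e-04% of the counts in replicate 1 and to 0 in replicate 2. In striated muscle, 3 of 4 counted markers were at 0 in both libraries, with Mir206 detected. The neural genes (Mir9 and Mir124a) and those muscle genes at 0 come in near-identical copies, so their low counts are uncertain. In whole livers, fewer cells of a type and less RNA per cell cannot be told apart.

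The family held 3.57% of the counts in replicate 1 (119562 counts, 95% exact Clopper-Pearson interval 3.55 to 3.59) and 3.49% in replicate 2 (55325 counts, 3.46 to 3.52). Of the 10 members, 9 were detected with at least 10 counts in each library, against 17.6% of all counted genes. The counts were spread very unevenly. Mirlet7g and Mirlet7i together held 86.3 ± 0.274% of the family's counts (SD, n = 2), and with Mirlet7d and Mir98 the share was 97.8 ± 0.598% (SD, n = 2). These are shares of the counts of the 10 members. They leave out the opposite-strand reads at Mirlet7e and Mirlet7f-1 and the reads that map to several places.

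Mirlet7g (ENSMUSG00000065440.1) led the family, with 21553 CPM in replicate 1 and 20568 CPM in replicate 2. It ranked 12 of 1973 genes in each library and held 59.6 ± 0.980% of the family's counts (SD, n = 2). Its hairpin spans 106178840 to 106178927 of chromosome 9 (mm10) within an intron of Wdr82, which codes for a subunit of a histone methyltransferase complex. Mirlet7i (ENSMUSG00000065406.2) followed with 9357 and 9488 CPM in replicates 1 and 2. It held 26.7 ± 0.707% of the family's counts (SD, n = 2) and occupies 122985640 to 122985724 of chromosome 10, inside an exon of the transcribed pseudogene D630033A02Rik. The lowest value of Mirlet7g stood well above the highest of Mirlet7i, and their ratio was 2.30 in replicate 1 and 2.17 in replicate 2.

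Mirlet7d and Mir98 made up a middle tier. Mirlet7d (ENSMUSG00000065453.1) reached 2299 and 2369 CPM in replicates 1 and 2, and its hairpin spans 48536012 to 48536114 of chromosome 13 within an exon of the noncoding RNA 6720427I07Rik. Mir98 (ENSMUSG00000065536.2), a let-7 microRNA under another name, had 1604 and 1874 CPM, and spans 151913214 to 151913321 of the X chromosome within an intron of the ubiquitin ligase gene Huwe1. The 2 genes did not overlap over the libraries. They ranked 75 and 87 of all genes by mean.

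Mirlet7b (ENSMUSG00000065564.1) also has a 5p sequence of its own but stood far lower, with 129 CPM in replicate 1 and 77.6 CPM in replicate 2. These are 431 and 123 counts. Its hairpin spans 85707319 to 85707403 of chromosome 15 within an exon of the noncoding RNA Lncppara. The other 4 members with a 5p sequence of their own all stood at 1604 CPM or more in both libraries.

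The 5 members that share their 5p sequence were all at 444 CPM or less. Mirlet7f-2 (ENSMUSG00000065602.1), in the same intron-borne pair of Huwe1 as Mir98 at 151912346 to 151912428 of the X chromosome, was the highest of them with 444 CPM in replicate 1 and 329 CPM in replicate 2. Mirlet7a-2 (ENSMUSG00000092770.1) had 170 and 90.9 CPM, and spans 41536716 to 41536811 of chromosome 9 within an intron of the noncoding transcript 3110039I08Rik. Mirlet7a-1 (ENSMUSG00000065421.2) had 133 and 78.9 CPM, and spans 48538179 to 48538272 of chromosome 13 within an exon of 6720427I07Rik. Each of these 3 was lower in replicate 2.

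Mirlet7c-1 (ENSMUSG00000065557.2) had 52.0 and 34.7 CPM in replicates 1 and 2, and spans 77599657 to 77599750 of chromosome 16 within an intron of Mir99ahg. Mirlet7c-2 (ENSMUSG00000065608.1), the member below the detection limit, had 23 and 9 counts, or 6.88 CPM (95% exact interval 4.36 to 10.3) and 5.68 CPM (2.60 to 10.8). Its hairpin spans 85706603 to 85706697 of chromosome 15, also in an exon of Lncppara. Mirlet7c-2 is 1 of the 2 members with neither strand of its own, and the other, Mirlet7a-1, stood higher. Together the 5 members with a shared 5p sequence held 2.25% of the family's counts in replicate 1 and 1.55% in replicate 2, and the 5 with their own held 97.7% and 98.5%. Reads that match several places were set aside before these counts were made, so the levels of let-7a, let-7c and let-7f as microRNAs can be higher by an amount the files do not give.

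**Figure D2:**
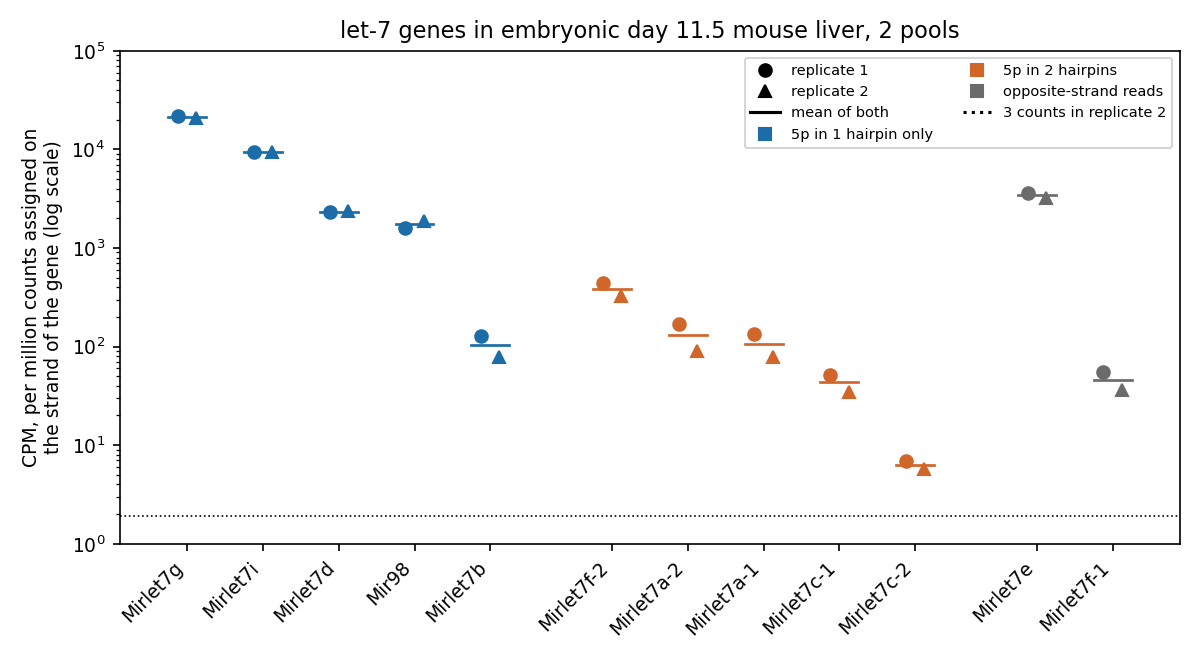
CPM of each let-7 gene on a log axis, circles for replicate 1, triangles for replicate 2 and bars for the mean. Blue genes have a 5p sequence found in 1 hairpin, orange genes in 2, grey loci are read from the opposite strand of another counted gene, and the dotted line is 3 counts in replicate 2. 4 blue genes stand at 1604 CPM or more in both libraries, Mirlet7b and all orange genes at 444 CPM or less.

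The order of the family was the same in both libraries. By mean it ran Mirlet7g, Mirlet7i, Mirlet7d, Mir98, Mirlet7f-2, Mirlet7a-2, Mirlet7a-1, Mirlet7b, Mirlet7c-1 and Mirlet7c-2. For 7 of the 9 neighbouring pairs the ranges over the libraries did not overlap, while Mirlet7a-2 and Mirlet7a-1, and Mirlet7a-1 and Mirlet7b, overlapped. Divided by hairpin length (83 to 108 bases), Mirlet7a-1 and Mirlet7b changed places, at 113 and 121 CPM per 100 bases, and the rest of the order stood. The genes nearest to Mirlet7g in log2(CPM + 1) of both libraries were Mir26b, Mir487b and Mir130a, at distances of 0.15, 0.35 and 0.36. Nearest to Mirlet7i were Mir214, Mir154 and Mir15a, at 0.14, 0.23 and 0.26. With 2 libraries this likeness is one of level.

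Mirlet7e and Mirlet7f-1 added a high and a low locus to the family. Gm25927 is counted on the minus strand at 17830343 to 17830459 of chromosome 17, over Mirlet7e (17830352 to 17830444, plus strand, in an intron of Spaca6). It had 0 reads on its own strand and 12171 and 5039 reads on the other in replicates 1 and 2. Set over the same denominator as the members, these are 3639 and 3180 CPM, which would place Mirlet7e between Mirlet7i and Mirlet7d in each library. Its 5p sequence, which differs from let-7a by U9G, was found in no other hairpin.

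Gm24111 is counted on the plus strand at 48537825 to 48537921 of chromosome 13, over Mirlet7f-1 (48537829 to 48537917, minus strand). It had 0 reads on its own strand and 186 and 58 on the other, or 55.6 and 36.6 CPM on that denominator. These values overlap those of Mirlet7c-1. Mirlet7f-1 shares its 5p sequence with Mirlet7f-2.

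The family is scattered over 8 places in the genome, and 6 of them are clusters, in which genes can be cut from a shared transcript. Levels inside a cluster were far from even in the assigned counts, which leave out reads that map to several places. On chromosome 13, Mirlet7a-1, Mirlet7f-1 and Mirlet7d lie within 2.261 kb on the minus strand in 6720427I07Rik. Mirlet7d stood 17.3 times above Mirlet7a-1 in replicate 1 and 30.0 times in replicate 2. It was also 41.3 and 64.7 times above the opposite-strand reads at Mirlet7f-1.

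In 3 clusters a let-7 gene sits between a gene of the miR-99 and miR-100 family and a gene of the miR-125 family. In each of them the let-7 gene was the lowest by the reads counted. On chromosome 16, in Mir99ahg, Mir99a reached 24269 and 30873 CPM in replicates 1 and 2, Mirlet7c-1 52.0 and 34.7 CPM, and Mir125b-2 308 and 363 CPM. Mir99a thus exceeded Mirlet7c-1 by 467 and 889 times. On chromosome 9, Mir100 had 5610 and 6998 CPM and Mir125b-1 762 and 835 CPM, so that Mir100 exceeded Mirlet7a-2 by 33.0 and 77.0 times. Mirlet7c-1 and Mirlet7a-2 share their 5p sequences with other hairpins, so these ratios compare assigned counts and can overstate differences between the microRNAs.

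On chromosome 17 the 3 genes lie within 0.692 kb, and the spread was smaller there. Mir99b reached 16818 and 19261 CPM in replicates 1 and 2, which was 4.62 and 6.06 times the reads at Mirlet7e. Mir125a had 6481 and 3802 CPM, or 1.78 and 1.20 times. let-7e-5p was found in 1 hairpin and let-7a-5p and let-7c-5p in 2, so the let-7 gene of this cluster is the one of the 3 with a 5p sequence of its own.

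In the remaining 2 clusters every gene is a let-7 gene. On the X chromosome, Mir98 stood 3.61 times above Mirlet7f-2 in replicate 1 and 5.69 times in replicate 2, with 0.976 kb from end to end. On chromosome 15, Mirlet7b stood 18.7 and 13.7 times above Mirlet7c-2, with 0.801 kb from end to end. In both pairs the gene with its own 5p sequence was the higher one.

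**Figure D3:**
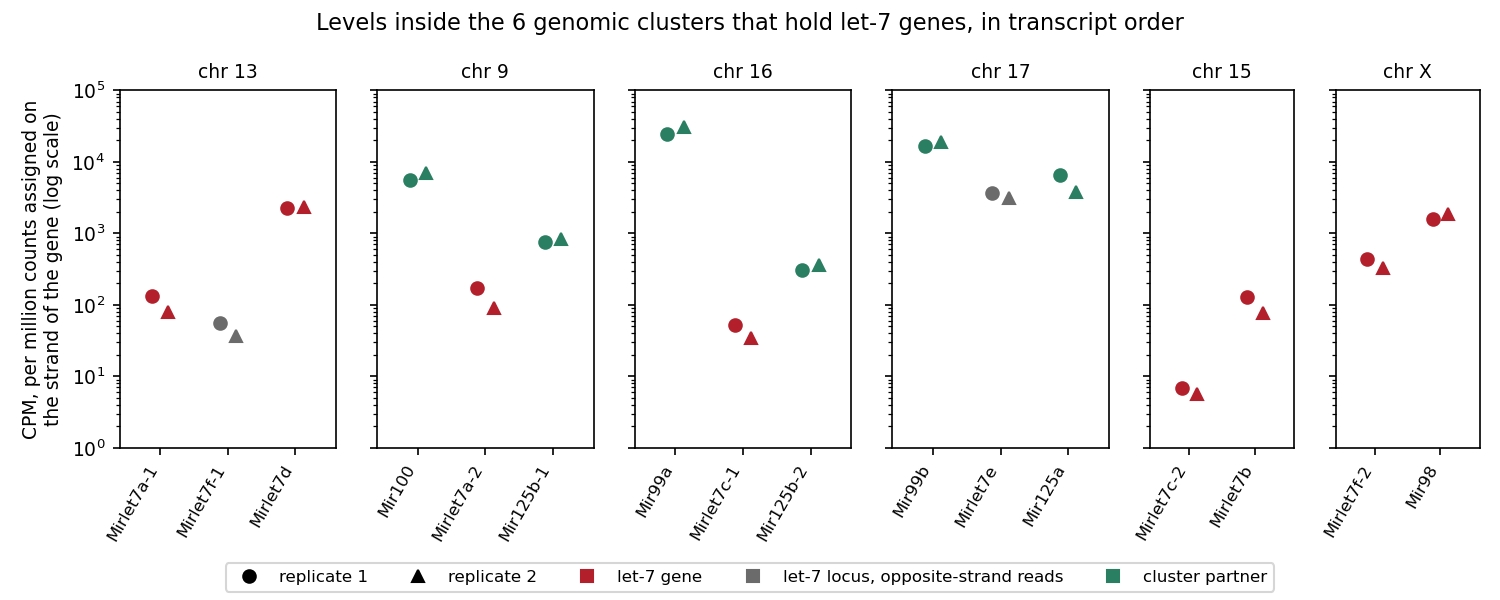
CPM on a log axis of the genes in the 6 genomic clusters that hold let-7 genes, in transcript order, circles for replicate 1 and triangles for replicate 2. Red marks let-7 genes, grey let-7 loci read from the opposite strand and green their partners. On chromosomes 9, 16 and 17 the let-7 gene is the lowest of its 3 genes by the reads counted.

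The 6 partner genes (Mir99a, Mir99b, Mir100, Mir125a, Mir125b-1 and Mir125b-2) were all detected and held 5.82 ± 0.558% of the counts (SD, n = 2), against 3.53 ± 0.0587% for the 10 let-7 members. The values of the 2 lists did not overlap, since the partners held 5.42 and 6.21% in replicates 1 and 2. The let-7 sum leaves out the opposite-strand reads at Mirlet7e (3639 and 3180 CPM) and Mirlet7f-1. Reads of either list that map to several places were set aside. Mir99a, the highest partner, stood above Mirlet7g in both libraries, and Mir99b below it.

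How far the pools differed for each member was asked with an exact binomial test, two-sided, of replicate 2 against replicate 1, scaled by TMM (trimmed mean of M values) and adjusted by Benjamini-Hochberg over all 454 genes with at least 10 summed counts. This test knows counting noise alone and compares 2 libraries. A gene counted as called where the adjusted p was under 0.05 and the difference 2-fold or more. Of the 10 members 0 were called, against 7.27% of all tested genes. At any fold, 8 of 10 members had an adjusted p under 0.05 in the exact binomial test, against 49.1% of all tested genes. The same number had an unadjusted p under 0.05, against 243 of all 454 tested genes. That background includes genes with few counts. Among genes with at least 100 summed counts, 8 of 9 members had an adjusted p under 0.05, against 208 of 285 tested genes. edgeR's exact test, run with the biological coefficient of variation set to 0.2, called 0 members, and 0 had an unadjusted p under 0.05. Of all 454 tested genes, that test called 1, and 51 had an unadjusted p under 0.05.

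The abundant members differed little between the pools. The log2 ratio of replicate 2 over replicate 1 was -0.01 for Mirlet7g (adjusted p = 0.666, exact binomial test), 0.08 for Mirlet7i, 0.10 for Mirlet7d and 0.29 for Mir98 (adjusted p = 4.14e-17, exact binomial test). At any fold, 3 of 10 members had an adjusted p under 0.05 and were higher in replicate 2 (Mirlet7i, Mirlet7d and Mir98), against 26.0% of all tested genes, and 5 of 10 were lower, against 23.1%. Among genes with at least 100 summed counts, 3 of 9 members were higher and 5 lower, against 107 higher and 101 lower of 285 tested genes. With total counts in place of TMM, 1 of the 10 members was higher and 6 were lower, against 102 higher and 121 lower of all 454 tested genes. With TMM, the 5 lower ones included Mirlet7a-2, with the largest difference at -0.84 (adjusted p = 2.16e-10, exact binomial test). The others were Mirlet7a-1 at -0.68, Mirlet7b at -0.67, Mirlet7c-1 at -0.51 and Mirlet7f-2 at -0.37. Small differences of the abundant members depended on the scaling. By total counts, the log2 ratio was -0.07 for Mirlet7g, 0.02 for Mirlet7i, 0.04 for Mirlet7d and 0.22 for Mir98.

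All 6 members under 1000 CPM were lower in replicate 2, at 0.535 to 0.826 times their CPM in replicate 1, while the 4 above it lay between 0.954 and 1.17 times, with Mirlet7g, the highest, slightly lower in replicate 2 and the other 3 higher. This split was drawn after the values were seen. The median log2 ratio was -0.59 for those 6 and 0.09 for the other 4, against 0.01 over all 454 tested genes. Among 189 other tested genes with a mean of 6.28 to 387 CPM, 55.0% were lower in replicate 2 by CPM. Their median log2 ratio, scaled by TMM, was 0.03. The 2 scales differ slightly, since the median over all tested genes was 0.01 with TMM and -0.05 with total counts. Both opposite-strand loci were lower in replicate 2 by CPM, although Mirlet7e stood above 1000 CPM. Their log2 ratios, taken over all reads counted on either strand and without TMM, were -0.61 at Mirlet7f-1 and -0.21 at Mirlet7e. The sign of Mirlet7c-2, at -0.17, turned to 0.14 when 5 rather than 0.5 was added to each count. Replicate 1 was the deeper library. Between the same pools, from replicate 1 to replicate 2, the summed share of the erythroid markers (2 of 2 detected) went from 0.795 to 1.10% of the counts, with Mir144 called. The endothelial marker Mir126a went from 5.74 to 8.01%. The sum of the 4 smooth muscle and mesenchyme markers went from 2.19 to 3.29%, with Mir143 called. Mir143 went from 11472 to 23596 CPM, while Mir214 went from 9911 to 8782 CPM. Mir145a (475 and 478 CPM) and Mir199a-1 (8.67 and 8.84 CPM) changed little. In sum, the hepatocyte markers went from 3.30 to 3.69%, the leukocyte markers from 0.498 to 0.512% and the pancreas markers from 0.191 to 0.245%. The genes of these lists did not move together. Mir122, Mir192, Mir223 and Mir375 were higher in replicate 2 by CPM. Mir216a, which was not detected, had 5 and 3 counts in replicates 1 and 2, too few to give a direction. Mir194-1 was called lower, with a log2 ratio of -1.37, and Mir194-2 (-0.74), Mir150 (-0.46) and Mir217 (-0.39) were lower without a call. The part of depth and of these cell types in the differences of let-7 genes was not tested.

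**Figure D4:**
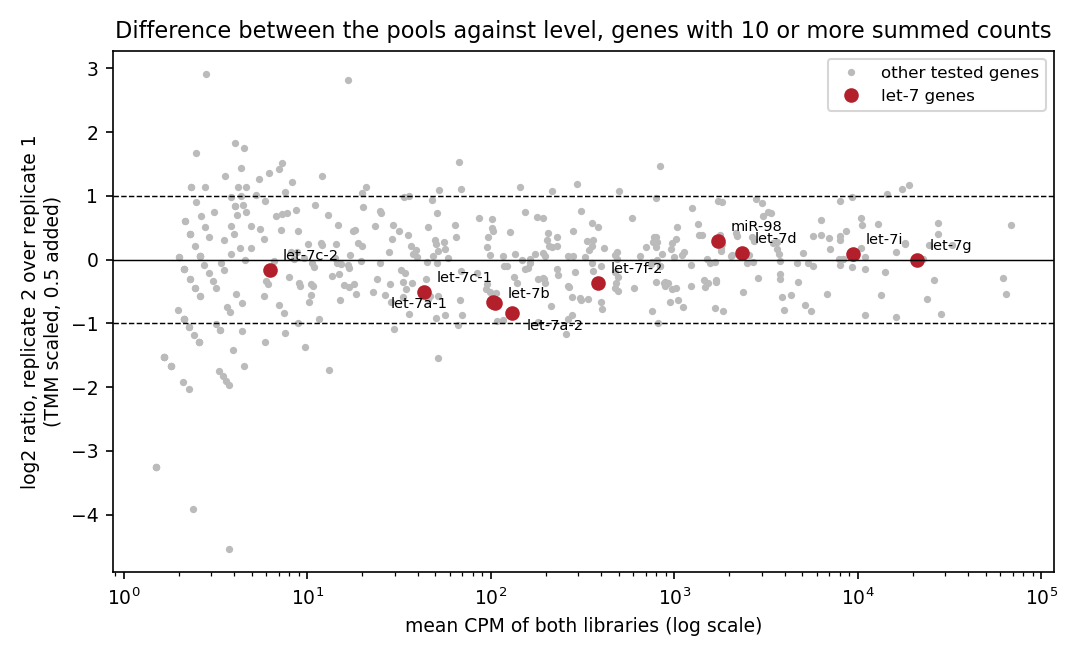
log2 ratio of replicate 2 over replicate 1 (TMM scaled, 0.5 added to each count) against the mean CPM on a log axis for 454 tested genes, with let-7 genes in red and a 2-fold difference dashed. The 4 abundant let-7 genes lie between -0.01 and 0.29, the 6 others between -0.84 and -0.17.

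MicroRNAs other than let-7 that are known to repress Lin28 were plentiful. Of 11 counted genes of the miR-125, miR-9 and miR-30 families, 9 were detected, holding 6.68% of the counts in replicate 1 and 3.67% in replicate 2. Mir30e led them, with 37299 CPM in replicate 1 and 19786 CPM in replicate 2, followed by Mir30a with 14420 and 7608 CPM. Of the 9 tested, 0 were called in the exact binomial test, against 7.27% of all tested genes. At an adjusted p under 0.05 and any fold, 3 of the 9 were higher in replicate 2, against 26.0% of all tested genes, and 4 were lower, against 23.1%. Mir9-2 was at 0 in both libraries and Mir9-3 had 7 and 0 counts.

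MicroRNAs of pluripotent cells, where Lin28 is known to be high and mature let-7 low, were present at a lower share than let-7. Of 10 counted genes listed from the Mir302 and Mir290 clusters, 7 were detected. The listed genes held 0.496% of the counts in replicate 1 and 0.442% in replicate 2. The list held Mir292a, a symbol that no counted gene carried, so the counted gene Mir292 (522 and 123 counts) was left out of these values. Mir291b (52 and 32 counts) was counted but stood outside the list. Mir302d had 1760 and 1306 CPM and Mir302a 1542 and 1492 CPM, against 1604 and 1874 CPM for Mir98. Of the 9 listed genes tested, 1 was called (Mir295, lower in replicate 2), against 2.42% of all tested genes called lower. Apart from the members, Mir1961 and Mir7k were the counted genes with a mature sequence that has the let-7 seed. Mir7k, whose mature sequence is named let-7k but whose symbol is not among the member symbols, had 0 counts in both libraries, and Mir1961 had 1 and 0 counts.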

How the data were processed

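Raw read counts for each microRNA gene were deposited by the authors without normalisation, in 3 columns (either strand, strand of the gene, opposite strand, a layout read from the values). Reads were aligned to mm10 and counted on GENCODE M4, per the deposited descriptions of the files. The aligner and counter are not given in the sources used here. The 4 summary classes that name no gene (73.8% and 71.0% of reads in replicates 1 and 2) stayed out of library sizes and tests. Names and positions came from GENCODE M21 (same assembly), which matched 1894 of 1973 identifiers, and sequences from RefSeq, which matched 12 of 12 let-7 loci. No genome sequence was used, so sharing was searched among hairpins only. The loop of 1 member is not reported here.

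The members and lists were chosen with earlier results of these data known. Named genes were all members, both opposite-strand loci, the lists and the 3 genes nearest to each of the 2 highest members. CPM used the strand of the gene. TMM factors came from genes with at least 10 summed counts (edgeR 4.0.16, R 4.3.3), DESeq2 1.42.0 gave alternative size factors, and 0.5 was added to counts for ratios. Other work used Python 3.11.15, scipy 1.17.1 and pandas 2.3.3. Tested on simulated counts for replicate 2 against replicate 1 with counting noise only, the procedure called 93.9% of 49 genes changed 4-fold, 30.6% of 49 changed 2-fold and 0.775% of 258 unchanged genes.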

Additional observations from a re-analysis of the deposited data

Results flagged for a closer look

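At 3 let-7 loci, opposite-strand reads, which are outside the main measurement, stood above the 3 counts that a count of 0 allows. As a share of all reads counted on either strand they averaged 3096 CPM at Gm25927, the locus of Mirlet7e, and 41.9 CPM at Gm24111, the locus of Mirlet7f-1. At Mirlet7b, whose own strand held 431 and 123 reads in replicates 1 and 2, the opposite strand held 5 and 6 reads, which averaged 2.39 CPM.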

How the results depend on the processing

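The family's share of 3.53% became 3.21% with reads on either strand, 3.52% when the loci of Mirlet7e and Mirlet7f-1 were added to them, 3.79% without Mir126a in the denominator and 0.974% of all reads in the file, where the denominator changed by construction. Leaving out each replicate gave 3.49 to 3.57%. The Mirlet7g share of the family, 59.6%, fell to 54.3% with both loci added, and lay between 58.9 and 60.3% in single libraries. The share at genes with their own 5p sequence lay between 97.7 and 98.5% in single libraries. Detected members numbered 8 at 100 counts, 10 at 1 count, and 9 to 10 in single libraries. The count of members called stayed at 0 under the 6 alternatives run, while that of all genes went from 33 to 16 with at least 100 summed counts, where fewer genes were tested (285), and to 1 with an assumed coefficient of variation of 0.2. The log2 ratio of Mirlet7c-2 turned from -0.17 to 0.14 with 5 added to each count, and the other 9 kept their sign under the 3 alternatives run. No paired analysis was possible because both libraries belong to the same group. Depth limits Mirlet7c-2 most, with 9 counts in replicate 2.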
